A study of Mus musculus with 4 samples.

Results

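Diphtheria toxin kills a cell through one protein, elongation factor 2, and in the mice studied here the toxin was switched on through the Musashi gene Msi1. The 9 genes described are Eef2, which encodes elongation factor 2; Dph1, Dph2, Dph3, Dnajc24, Dph5 and Wdr85, which build the residue that the toxin attacks; Msi1; and Msi2, a relative of Msi1 that plays no part in switching on the toxin. They were picked by gene symbol, and all 9 are among the 22558 symbols in the files. RNA-seq was done on whole retinas, with 4 libraries, 1 per group; the mice were some 8 weeks old and of mixed C57BL/6 and 129 strain. The DTA groups, at day 1 and day 5 after injury, carried Msi1-CreERT2/+ and R26R-DTA/+. The control groups at the same days carried R26R-DTA/+ and no Cre, so every mouse carried the toxin allele and the groups differed in the Cre allele. CreERT2 is a recombinase that acts only when a ligand binds its estrogen receptor part, and R26R-DTA makes diphtheria toxin fragment A (DTA) where Cre has acted. Toxin is therefore expected in cells that use the Msi1 promoter and in their descendants. The sources used here give neither the ligand and its timing, nor the number of mice per library, nor whether the Cre allele disrupts 1 copy of Msi1.

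Elongation factor 2 moves the ribosome along the mRNA after each peptide bond. A histidine of the protein is converted to diphthamide, a modified residue, and fragment A transfers ADP-ribose to it, which stops translation. The diphthamide genes are needed for this modification, and cells that lack one of them resist the toxin. Msi1 and Msi2 encode RNA-binding proteins best known from neural stem and progenitor cells; in mouse photoreceptors they favour the inclusion of photoreceptor exons.

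The toxin's point of attack lies in the coding sequence of Eef2 (chromosome 10, 80639376 to 80645254, plus strand, build mm9). The stretch shown, from the annotated transcript, runs from 80644018 to 80644080 in exon 12 of 14, and the capitals mark the codon of the histidine that carries diphthamide, residue 715 of 858.

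Eef2: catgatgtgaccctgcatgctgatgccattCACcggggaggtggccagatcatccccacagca

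The Musashi proteins are close relatives: 251 of 327 aligned residues (76.8%) were identical. The coding stretches around the RNA-binding motif RNP1 of the first RNA recognition motif are shown to compare how alike the transcripts are, since fragments of one could be counted to the other. Both stretches join exons 3 and 4, on chromosome 5 between 115880700 and 115880846 for Msi1 (plus strand) and on chromosome 11 between 88577875 and 88578617 for Msi2 (minus strand), in mm9. Capitals mark the 13 of 48 bases at which they differ.

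Msi1: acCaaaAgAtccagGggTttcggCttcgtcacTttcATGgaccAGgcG
Msi2: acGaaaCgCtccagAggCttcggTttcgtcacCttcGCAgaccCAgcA

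The longest run of identical bases shared by the main transcripts of Msi1 and Msi2 was 44 bases. With the read length not stated, how many fragments could be placed in either gene was not tested.

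Levels are in FPKM, which divides the fragments of a gene by its transcript length and by the depth of the library, so different genes can be set side by side. A difference is that of log2(FPKM + 1), DTA minus control, a scale that understates the change of low genes. With 1 library per group there is no spread between mice, no test and no p-value. A gene was called higher or lower by size alone: a difference of at least 1 on that scale, at least 5 FPKM in 1 of the 2 libraries, and a size above that of the gene's difference between controls. The depth, estimated from the smallest steps in the values, was about 99.1 and 74.2 M (mega) fragments for DTA and control at day 1, and 28.8 and 35.7 M for DTA and control at day 5. The day 1 DTA file is short, with 5799 symbols against 22558 for each other library. It holds 4 of the 9 genes, Eef2, Dph1, Dph3 and Msi2. The other 5 were not analysed here at day 1.

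The libraries carried retina: rod markers summed to 4969 FPKM over 12 genes in day 5 DTA and to 15699 and 12487 in the day 5 and day 1 controls. Markers of neighbouring tissue also stood at unequal levels. Whether this came from tissue carried over or from expression within the retina was not tested. The sum of 8 lens markers was 176 FPKM in the control of day 5 and 1111 in that of day 1, and all 8 were lower in day 5 DTA than in its control, with a median of -1.94. The 7 pigment epithelium markers summed to 19.98 FPKM in day 5 DTA, 42.8 in its control and 169 in the day 1 control. Over all 9883 genes at 5 FPKM or more the median day 5 difference was 0.26, with 74.6% of genes above 0, against 0.05 over 2623 genes at day 1. A day 5 difference of about 0.26 is thus the midpoint of all genes, and the members' values are also given relative to it.

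In outline, no member passed the size rule at either day. Msi1 came closest, standing lower in DTA at day 5, and Dph2 had the largest positive difference. Eef2 was close to control at both days. At day 1, 0 of the 4 members measured were called, where 2.67% of all 2623 genes were. At day 5, 0 of the 8 members at the floor of 5 FPKM were called, where 8.52% of all 9883 genes were; the other member, Dph5, lay under the floor. At day 5 all called genes split into 667 higher and 175 lower, and into 424 and 255 once the libraries were scaled to a common median ratio, a scaling under which Msi1 was called lower, where 6.92% of all genes were called. Msi1 was also called against the mean of both controls, where 7.75% of genes were, and with Dph2 against the day 1 control, where 8.26% were, or with a size rule of 1.5-fold, where 24.7% were.

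**Figure D1:**
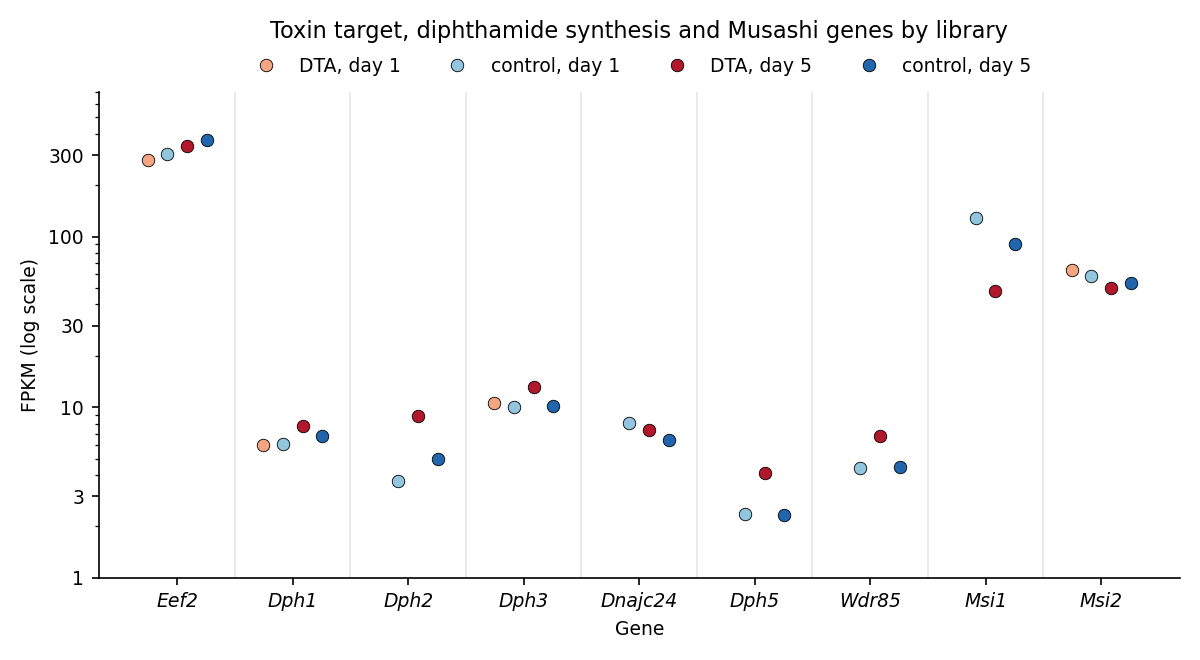
FPKM on a log axis of the 9 genes in each library; each point is 1 library, and Dph2, Dnajc24, Dph5, Wdr85 and Msi1 have no day 1 DTA point. Eef2 stands at 279.8 FPKM or more in all 4 libraries, the diphthamide genes stand between 2.35 and 13.1, and the day 5 DTA point of Msi1 (47.9) lies under both controls.

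Eef2, the target itself, stood at 279.8 FPKM in DTA and 304 in control at day 1, and at 339 FPKM in DTA and 369 in control at day 5. The 2 days gave nearly the same difference, -0.12 each, a level 1.09-fold lower in DTA. Between the controls Eef2 differed by more, 0.28 higher at day 5 than at day 1, so the DTA libraries stood below their own day's control but the day 5 DTA library stood above the day 1 control. Relative to the median of all genes the day 5 difference was -0.38, and 17.0% of genes had a difference as low or lower. The transcript was abundant throughout: it ranked 61 among 22545 genes in day 5 DTA, 65 in its control and 86 in the day 1 control. In all 4 libraries the authors' FPKM of Eef2 lay above the upper bound of their own interval, by 4.70% to 5.84%, so those bounds are not used for it.

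Set beside Eef1a1, the elongation factor that delivers transfer RNA to the ribosome, the Eef2 level was a smaller fraction in day 5 DTA. Eef1a1 stood at 955 FPKM in DTA and 672 in control at day 5 and at 594 in the day 1 control. The ratio of Eef2 to Eef1a1 within a library, which no scaling of the library moves, was 0.355 in day 5 DTA, 0.549 in its control and 0.511 in the day 1 control. Eef1a1 has near-identical processed copies in the genome, so its level is less certain than that of Eef2. The fraction also depends on the factor chosen. Eef1a2 and Eef1g were lower in day 5 DTA than in its control, as Eef2 was, with differences of -0.19 and -0.17. Of 14 cytosolic elongation and termination factors measured, 12 were above 0, Eef1a1 among them at 0.51.

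The opening step of diphthamide synthesis attaches a group from S-adenosylmethionine to the histidine. Dph1 and Dph2 form the enzyme, Dph3 is a small iron protein that passes electrons to it, and Dnajc24 is a J-domain protein of the same step. Dph1 (chromosome 11, 74991145 to 75003985) stood at 6.00 FPKM in DTA and 6.10 in control at day 1, and at 7.73 in DTA and 6.80 in control at day 5. Its differences were -0.02 and 0.16, and at both days the authors' intervals of DTA and control overlapped. Over all genes at the floor they did not overlap for 50.6% of 2590 at day 1 and 66.7% of 9800 at day 5. Overlap is given as a description and not read as a lack of difference, for Dph1 or another member. Dph1 shares exon sequence with Ovca2 on the same strand, so fragments there may belong to either; Ovca2 stood at 7.01 FPKM in DTA and 8.62 in control at day 5.

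Dph2 (chromosome 4, 117561248 to 117564608) stood at 8.83 FPKM in DTA at day 5, against 4.95 in its control and 3.70 in the day 1 control. The DTA library stood above both controls. The authors' interval was 7.61 to 9.34 in DTA and 4.20 to 5.31 in the day 5 control; such an interval covers the error within 1 library and no variation between mice. At day 5 the intervals of DTA and control did not overlap for 66.7% of 9800 genes at the floor, so nothing is read from that for Dph2 or another member. The difference was 0.72, 1.78-fold, the largest positive one of the 9 members, and 14.3% of all genes had one as high or higher. Against the day 1 control it was 1.07 and passed the size rule.

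Dph3 (chromosome 14, 32893748 to 32898851) stood at 10.58 FPKM in DTA and 10.04 in control at day 1, a difference of 0.07 with overlapping intervals. At day 5 it stood at 13.1 FPKM in DTA and 10.1 in control, 0.35 higher, close to the median of all genes. Dph3 shares exon sequence with Oxnad1 on the opposite strand, which stood at 9.47 FPKM in DTA and 7.51 in control at day 5. Whether the counting used strand is not stated. Dnajc24 (chromosome 2, 105806865 to 105843706) stood at 7.39 FPKM in DTA and 6.41 in control at day 5, with overlapping intervals, and at 8.11 in the day 1 control. Its difference of 0.18 was smaller than its difference of -0.30 between the controls. Dnajc24 likewise shares exon sequence with a gene on the opposite strand, BC048594, for which no level is given here.

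The later steps complete the residue: Dph5 is the methyltransferase of these steps, and Wdr85, also named Dph7, then removes a methyl group, a role worked out in yeast. Dph5 (chromosome 3, 115591101 to 115632241) was the lowest member, at 4.11 FPKM in DTA and 2.35 in control at day 5, and at 2.36 in the day 1 control. The 2 controls were thus alike and DTA stood 1.75-fold higher, a difference of 0.61 that lay under the floor for a call. These values rest on roughly 170 fragments in day 5 DTA, 120 in its control and 252 in the day 1 control. Wdr85 (chromosome 2, 24817942 to 24828991) behaved likewise, with 6.81 FPKM in DTA against 4.45 and 4.39 in the day 5 and day 1 controls. The difference was 0.52, 1.53-fold. Atpbd4, the mouse counterpart of the yeast gene for the closing amidation and no member, stood at 9.58 FPKM in DTA, 6.68 in its control and 7.94 in the day 1 control.

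As a group, all 6 diphthamide members were above 0 at day 5, where 74.6% of all genes were. They ranged from 0.16 (Dph1) to 0.72 (Dph2), with a median of 0.43 against 0.26 over all genes. Relative to the median of all genes, 4 of 6 were above 0, and after median ratio scaling Dph1 stood at -0.05 and Dnajc24 at -0.03, while Dph2 stood at 0.51, Dph5 at 0.42, Wdr85 at 0.31 and Dph3 at 0.12. Summed over the 6 genes the level was 48.0 FPKM in day 5 DTA, 35.1 in its control and 34.7 in the day 1 control. Eef2 exceeded this sum 7.07-fold in day 5 DTA, 10.5-fold in the day 5 control and 8.75-fold in the day 1 control, a ratio that scaling cannot move.

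**Figure D2:**
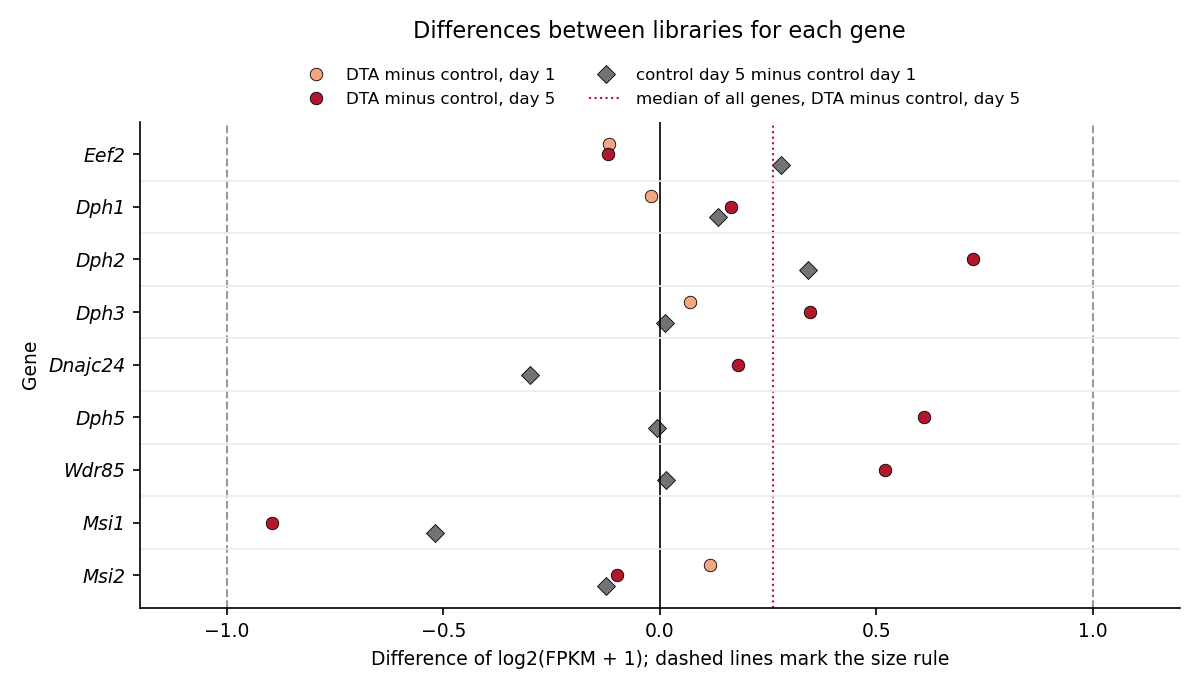
Difference of log2(FPKM + 1) of each gene for DTA minus control at day 1 and at day 5 and for the day 5 minus the day 1 control; each point compares 1 library with 1 library. All points lie inside the dashed lines at the size rule, and Msi1 at -0.89 is nearest to one. The day 5 points of Dph2, Dph3, Dph5 and Wdr85 lie right of the dotted median of all genes at 0.26.

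Promoters are shown for Eef2, the member of the highest level, and for Dph5 and Wdr85, which had the largest day 5 differences among the diphthamide genes in the table used. Of the 9 members 7 matched the RefSeq promoter table of build GRCm38.p6. Shown are the 150 bases before the start of Eef2 (chr10:81176481-81176630, plus strand), Dph5 (chr3:115888033-115888182, plus strand) and Wdr85 (chr2:24962272-24962421, plus strand); capitals mark letters matched on either strand by the TATA box (letters TATAAA), the E-box (letters CACGTG), the ETS core (letters CCGGAA), the GC box (letters GGGCGG) or the CCAAT box (by those 5 letters).

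Eef2: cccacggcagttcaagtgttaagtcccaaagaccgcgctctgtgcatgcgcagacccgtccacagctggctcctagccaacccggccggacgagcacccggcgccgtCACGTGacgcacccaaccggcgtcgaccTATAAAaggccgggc
Dph5: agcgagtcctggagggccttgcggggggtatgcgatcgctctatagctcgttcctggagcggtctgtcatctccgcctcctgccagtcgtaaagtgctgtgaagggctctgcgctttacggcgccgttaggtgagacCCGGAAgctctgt
Wdr85: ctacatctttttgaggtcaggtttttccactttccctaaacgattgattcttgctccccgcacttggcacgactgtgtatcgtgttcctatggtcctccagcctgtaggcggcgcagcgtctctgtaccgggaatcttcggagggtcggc

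In these windows Eef2 held a TATA box and an E-box, which do not overlap, Dph5 held an ETS core, and Wdr85 held none of the motifs. Over 27025 promoters of the same length, 8.08% held the TATA letters, 4.30% the E-box, 9.48% the ETS core, 29.0% the GC box and 25.3% the CCAAT letters. A match is a description of letters and not a site.

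Msi1 (chromosome 5, 115879694 to 115904211), the gene whose promoter drives the recombinase, stood at 47.9 FPKM in day 5 DTA, against 90.0 in its control and 129 in the day 1 control. The DTA library was the lowest of the 3, and the controls themselves differed by -0.52 (day 5 minus day 1). The day 5 difference was -0.89, 1.88-fold lower in DTA, just short of the size rule, and 2.51% of all genes had one as low or lower. Some alternatives took it past the rule: it was -1.14 after median ratio scaling, -1.18 against the mean of both controls and -1.41 against the day 1 control. In each of the 3 libraries the authors' FPKM of Msi1 lay above the upper bound of their own interval, by 5.69% in DTA and by 8.99% and 11.4% in the day 5 and day 1 controls. As for Eef2, those bounds are not used. Whether the Cre allele, carried by the DTA mice alone, disrupts 1 copy of Msi1 is unknown, and an effect of that allele on the Msi1 level cannot be told apart from that of the injury.

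Msi2 (chromosome 11, 88152884 to 88579543), its relative, varied less. It stood at 63.7 FPKM in DTA and 58.7 in control at day 1, and at 50.1 in DTA and 53.8 in control at day 5. In day 1 DTA alone the authors' FPKM of Msi2 lay outside their own interval, just under its lower bound of 63.9. The differences, 0.12 and -0.10, were of the size of that between the controls, -0.12. In a bulk sample fewer cells of a type and less RNA per cell cannot be told apart, for Msi1 and Msi2 as for every gene here.

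The Musashi pair stood nearly level in day 5 DTA, while Msi1 stood above Msi2 in both controls. The ratio of Msi1 to Msi2 within a library was 0.956 in day 5 DTA, 1.67 in its control and 2.20 in the day 1 control, and scaling cannot move it. The summed level of both was 98.1 FPKM in day 5 DTA, 144 in its control and 188 in the day 1 control. In both controls the order of levels from the top was Eef2, Msi1, Msi2, Dph3; in day 5 DTA Msi2 stood above Msi1. Below Dph3 the authors' intervals of neighbours in the order often overlapped at day 5: those of Dph2, Dph1, Dnajc24 and Wdr85, in that order, each with the next in DTA, and those of Dph1 with Dnajc24 and of Dph2 with Wdr85 in the control; at day 1 none overlapped. Dph5 was the lowest in each of the 3 libraries.

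**Figure D3:**
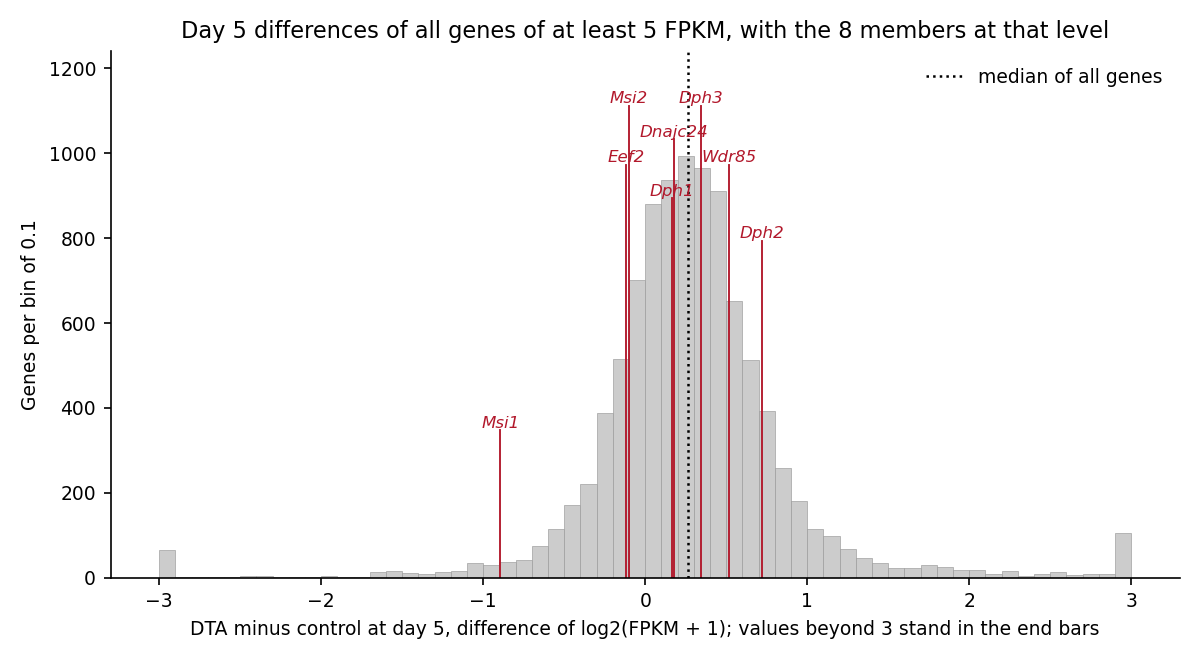
Distribution of the day 5 difference over the 9883 genes of at least 5 FPKM in DTA or control, in bins of 0.1, with red lines at the 8 members at that level (line heights are arbitrary) and a dotted line at the median of all genes, 0.26. Msi1 at -0.89 lies in the thin left part, with 2.51% of genes as low or lower, and the other 7 members lie within the bulk.

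Cell type markers differed in both directions at day 5, most rod and Müller glia markers lower, as Msi1 was, and microglia and macrophage markers higher. Of 12 rod markers 8 were called lower, where 1.77% of all genes were, with a median of -1.63. Gnat1, the rod transducin alpha subunit, fell the most, with 739 FPKM in DTA and 6678 in control. Those not called were Gngt1 (-0.88), Pde6a (-0.21), Sag (-0.11) and Rp1 (0.42). Of 12 Müller glia markers 3 were called lower, with a median of -0.50, and 11 were below 0, from -3.10 (Spc25) to -0.07 (Hes1), with Sox9 at 0.47. The summed level was 475 FPKM in DTA, 1446 in its control and 1805 in the day 1 control. Much of that sum was 1 gene, Glul, at 159, 888 and 1043.5 FPKM in the same libraries. All 12 Müller glia markers, like Msi1, were also lower in the control of day 5 than in that of day 1 (median -0.40). So were all 8 lens markers (median -2.45) and 6 of 7 pigment epithelium markers (median -1.66), while 8 of 12 rod markers were higher (median 0.10) and the median of all genes was -0.06. Of 7 microglia and macrophage markers 6 were called higher, where 6.75% of all genes were, with a median of 2.51, and summed to 82.4 FPKM in DTA and 10.7 in control. No marker on these lists was listed at 0 in the day 5 libraries. The part of these cell types, and of lens and pigment epithelium, in the Msi1 difference was not tested.

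**Figure D4:**
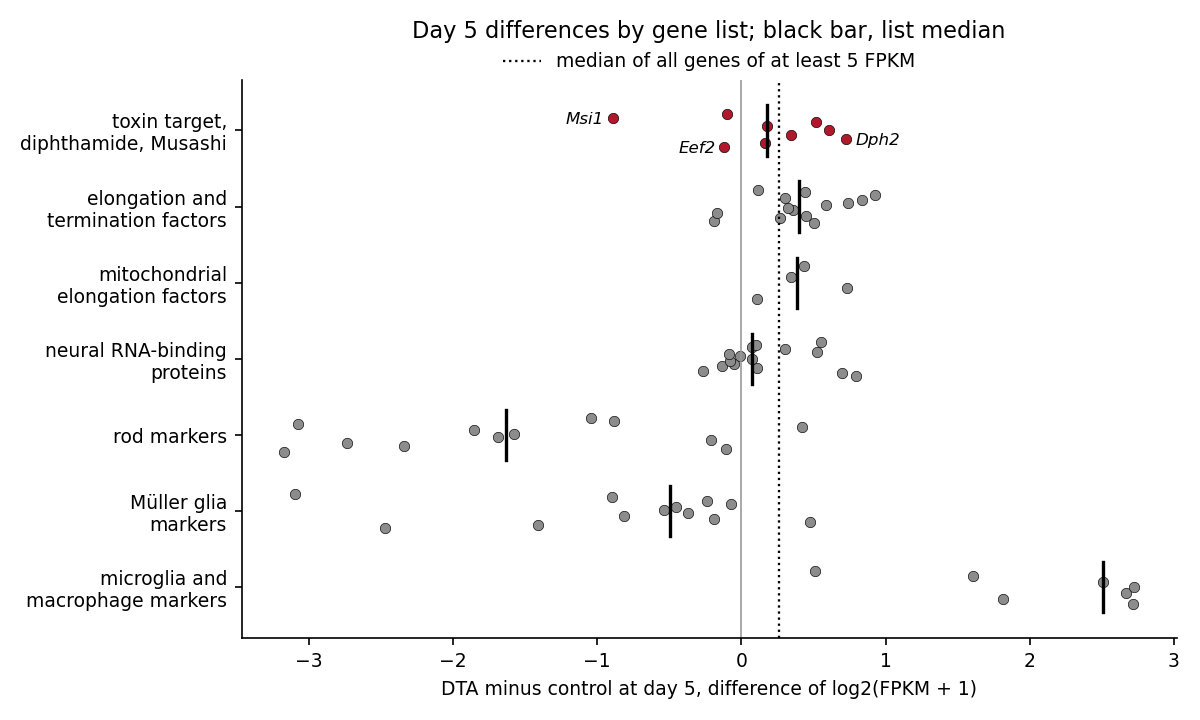
Day 5 difference of log2(FPKM + 1), DTA minus control, of each measured gene by list (points, 1 gene each), with the list median (black bar) and the median of all genes at 0.26 (dotted). The diphthamide genes lie between 0.16 and 0.72 and the cytosolic elongation and termination factors between -0.19 and 0.93, Msi1 lies among the Müller glia and rod values, and microglia and macrophage markers lie to the right.

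Other factors of translation gave the setting for Eef2. At day 5, 14 cytosolic elongation and termination factors were measured. None of the 12 that the rule could call was called, where 8.52% of all genes were. Above 0 were 12 of 14, where 74.6% of all genes were. The median of the 14 was 0.40 against 0.26 over all genes. Etf1, the release factor that reads stop codons, differed by 0.93, with 32.2 FPKM in DTA and 16.4 in control. Eftud1, a relative of Eef2 that acts in ribosome maturation, differed by 0.84, Eefsec, the selenocysteine elongation factor, by 0.74, Eif5a2 by 0.59 and Eef1d by 0.45. The factors below 0 were Eef1a2 (-0.19) and Eef1g (-0.17), of the size of Eef2. Eef2k, the kinase that inhibits elongation factor 2, stood at 2.81 FPKM in DTA and 1.98 in control. Of 4 mitochondrial elongation factors none was called, where 8.52% of all genes were, with Tsfm at 0.73 and a median of 0.39. At day 1 none of the 3 cytosolic and 2 mitochondrial factors measured was called, where 2.67% of all 2623 genes were.

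A list of neural RNA-binding proteins, some of them also widely expressed, gave the setting for the Musashi genes. Of 15 measured at day 5 none of the 13 at the floor was called, where 8.52% of all genes were. The median was 0.08 against 0.26 over all genes. Above 0 were 9 of 15, where 74.6% of all genes were, and the lowest was Elavl2 at -0.27. The values that follow are the highest of the list. Dazap1, a close relative of the Musashi proteins, stood at 32.1 FPKM in DTA and 18.1 in control, a difference of 0.80; Elavl1 differed by 0.70, the glial RNA-binding gene Qk by 0.55 and the splicing regulator Ptbp1 by 0.53. Msi1 at -0.89 lay below all 15. Of 4 mRNAs known as Musashi targets, 2 were at the floor and 1 was called higher, where 6.75% of all genes were: Cdkn1a, the cell cycle inhibitor p21 and also a p53 target, stood at 50.8 FPKM in DTA and 3.65 in control, 13.9-fold higher. Numb, the Notch inhibitor whose translation Msi1 represses, stood at 13.6 and 11.5 FPKM in DTA and control, and Dcx and Robo3 were under 1 FPKM in both. Hbegf, the mouse counterpart of the human toxin receptor, which fragment A made inside the cell does not need, stood at 6.24 FPKM in DTA and 4.67 in control.

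Between the days the 4 members present in all libraries can be followed within the DTA retinas. Eef2 differed by 0.28, Dph1 by 0.32, Dph3 by 0.29 and Msi2 by -0.34 (day 5 minus day 1 DTA), against 0.28, 0.13, 0.01 and -0.12 between the controls. The day 5 difference minus the day 1 difference was -0.003 for Eef2, 0.18 for Dph1, 0.28 for Dph3 and -0.21 for Msi2, where the median of all 2537 genes was 0.21. Dph1 and Dph3 thus lay near the midpoint, and 11.6% of genes were as low as Msi2 or lower.

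Genes with the most similar profiles were sought by the largest gap between centred log2(FPKM + 1) profiles. For Msi1, over 3 libraries and 8418 genes, they were A530058N18Rik (gap 0.06), A930004D18Rik (0.07) and Rgs9bp (0.08), the anchor of the photoreceptor regulator RGS9, which stood at 59.4 FPKM in day 5 DTA, 124 in its control and 166 in the day 1 control. For Eef2, over 4 libraries and 2268 genes, they were the ribosomal protein gene Rpl23a, Gm11968 and Lman2l, with gaps of 0.05 each. For Msi2 they were Spred2, an inhibitor of MAP kinase signalling (0.02), 1110028C15Rik (0.03) and Cplx2, a synaptic complexin (0.05). With 3 or 4 points per profile, likeness describes these libraries only.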

How the data were processed

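RNA from whole retinas was made into 4 libraries with an Illumina mRNA kit, per the labels' protocols. The deposited values are FPKM with lower and upper bounds, made by the authors; Cufflinks 2.1.1, CASAVA 1.8.2, bcl2fastq 1.8.4 and the build mm9 are named, without roles, per the submitters' processing notes. No aligner is named. Lines of status FAIL or HIDATA, none of them a member, were read as missing, and loci of one symbol were summed. Locus starts had 1 added.

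Depth was estimated from the mode of the smallest FPKM multiplied by length, over genes with 1 transcript above 1500 bases, taken as 1 fragment. Differences used a pseudocount of 1 in Python 3.11.15 with pandas 2.3.3. Members, lists and rules were chosen with earlier results of these data known. Named were all members, up to 6 genes per list with the largest day 5 differences, and 3 most similar genes for Eef2, Msi1 and Msi2; the Musashi targets under the floor, the factors below 0, the single genes set beside members and the marker examples were added after their values were seen. Alternatives changed the pseudocount, scaling, control, floor, control requirement and size.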

Additional observations from a re-analysis of the deposited data

Results flagged for a closer look

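Of the 4 members measured at both days, 2 had differences of opposite sign. Dph1 differed by -0.021 at day 1 and 0.16 at day 5, and Msi2 by 0.12 at day 1 and -0.10 at day 5 (DTA minus control). The difference between the days was not tested, since each rests on 1 library per group. Over all 2537 genes at the floor on both days, 29.6% had opposite signs.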

How the results depend on the processing

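No paired analysis was possible because each group has 1 library. At day 1 no member was called under any of the 9 alternatives. At day 5 the count of called members was 0 in the values reported, 1 (Msi1) after median ratio scaling, 1 (Msi1) against the mean of both controls, 2 (Msi1 and Dph2) against the day 1 control and 2 (the same genes) with a size rule of 1.5-fold. Of 2623 genes at the floor at day 1, 70 were called, 46 with a pseudocount of 5 and 143 with the 1.5-fold rule. Of 9883 genes at the floor at day 5 the counts were 842, 472 and 2445. These counts cannot be set side by side between the days, since day 1 DTA covers fewer genes. Signs of small differences turned in 9 cases. Eef2 at day 5 was 0.16 against the day 1 control and 0.013 against the mean of both controls. Dph1 at day 5 was -0.053 and Dnajc24 -0.034 after median ratio scaling, and Dnajc24 was -0.12 against the day 1 control. Taken at the nearest bounds of the authors' intervals, Dph1 was 0.17 and Dph3 -0.046 at day 1, and Dph1 was -0.10 and Dnajc24 -0.16 at day 5. The causes were not tested. Depth limits Dph5 most, whose intervals had half-widths of 15.1% to 21.2% of the FPKM.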
